A study of Rattus norvegicus with 36 samples.

Results

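The dorsal root ganglion at level L5 was compared, in rats with ligation of the spinal nerve of that level, between 50 and 28 days after surgery, which follows the injured ganglion late in its course. The arrays were taken by title, 2 of each day on each of the 3 chip types A, B and C of the Affymetrix RG_U34 set, which gives 12 of the 36 arrays of the series. The other 24 arrays hold L4 ganglia of rats with the same L5 ligation, and ganglia of sham-operated rats, at the same 2 days. A pool of sham ganglia holds L4 and L5 together, so no pool holds sham L5 alone. Where the labels give a number, a pool came from 30 rats. The titles call the 2 L5 arrays of a chip type, and the 2 L4 arrays, technical replicates, so they repeat the measurement and not the animals. The sham titles say only replicate, while the sham descriptions speak of pooled samples put on a pair of arrays, so the sham arrays were likewise taken as 1 pool per day. With 1 L5 pool per day, day and collection cannot be told apart. Strain, sex and age of the rats are not given in the sources used here.

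Dorsal root ganglia hold the cell bodies of sensory neurons, each wrapped by satellite glia, together with Schwann cells, vessels, connective tissue and macrophages. Ligation of a spinal nerve cuts the axons of these neurons off from their targets. After such injury the neurons are known to raise injury factors such as Atf3 and Jun and peptides such as Vip, Npy and galanin, to lower many channels and transmitter receptors, and to be joined by macrophages. In whole ganglia, fewer cells of a type and less RNA per cell cannot be told apart.

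The labelled tissue was checked against neuronal and Schwann cell markers in L5. The intermediate filament gene Prph, of small sensory neurons, read 3562 and 3391 on the 2 arrays at 50 days, against 3572 and 3912 at 28 days, and the myelin gene Pmp22 read 10160 and 8486, against 8526 and 8231, on the brightest probe set of each. Median array signals in L5 at 50 days were 72.8 and 65.2 on A, 86.7 and 85.1 on B, and 91.8 and 91 on C. At 28 days they were 55.9 and 63.1, 76.8 and 76.5, and 84.5 and 88.7. On each chip type both arrays of 50 days thus had the higher medians. The number of arrays limits the precision. In 1 sham array of chip B the title gives 28 days and the description 50 days. It was kept under its title, and it correlated at r = 0.952 with the other sham array of 28 days and at 0.932 and 0.928 with those of 50 days.

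Between the days L5 moved more than L4 or sham did. The difference of 50 minus 28 days, on the scale log2(signal + pseudocount), had an SD over 15721 tested probe sets of 0.63 in L5, 0.38 in L4 and 0.43 in sham. The arrays of a pool were also further apart in L5, with a median SD of 0.23, against 0.19 in L4 and 0.20 in sham. On A, B and C the L5 arrays of 50 days had the lowest correlation of any pool, at 0.905, 0.92 and 0.88. Probe sets were counted as apart where the pool means differed by at least 1 and the arrays of the 2 days did not overlap. By this count, which is a description with no test, 1632 probe sets (10.4%) were apart in L5, 279 (1.77%) in L4 and 487 (3.1%) in sham. In L5, 856 (5.44%) were higher and 776 (4.94%) lower at 50 days. The split depends on the scaling, with 549 higher and 1055 lower after median centring, and 590 higher and 884 lower after scaling to the hybridisation controls. Median centring moved the median L5 difference of all probe sets to -0.07, against 0.05 as reported. When the probe sets were cut by mean signal into 3 bins, 480 of the dimmest bin were higher and 276 lower, and 118 of the brightest bin were higher and 254 lower.

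**Figure D1:**
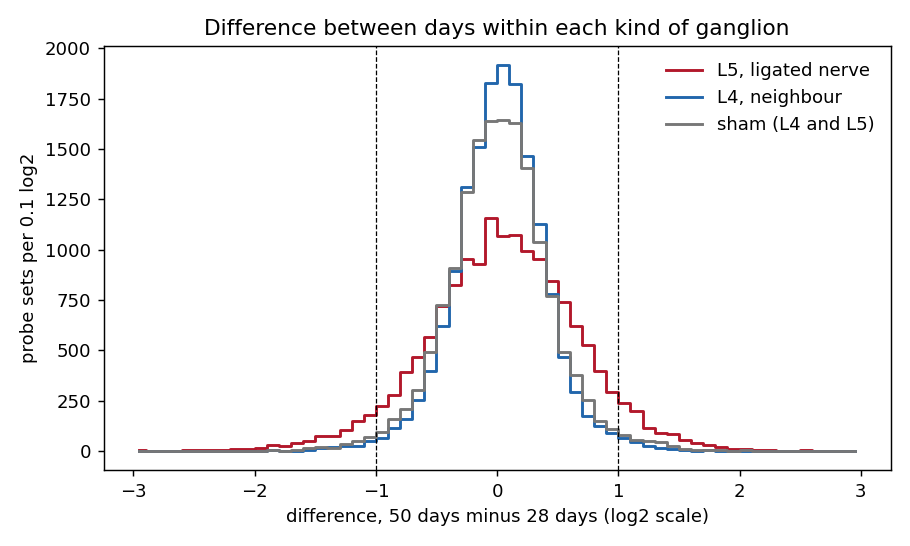
Number of probe sets per 0.1 log2 (y axis) by the difference of 50 minus 28 days on the log2 scale (x axis), for L5, L4 and sham pools, with dashed lines at -1 and 1. The L5 line is the widest, with an SD of 0.63 against 0.38 in L4 and 0.43 in sham.

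The difference was tested with limma, taking the spread from the 28 and 50 day pools of L4 and of sham, since L5 has no spread between pools of its own. The test assumes that L5 pools vary as those pools do, which 1 L5 pool per day cannot show. In some genes called below, the SD between arrays of an L5 pool was larger than the SE of the difference. It was 0.59 against 0.25 for Car3 and 0.46 against 0.33 for Faim2, so their SEs may be too small. In others it was smaller, as 0.13 against 0.41 for C1s. At an adjusted p of 0.05 (Benjamini-Hochberg over all probe sets) 29 probe sets (0.184%) were called, 11 of them higher (0.07%) and 18 lower (0.114%) at 50 days, and 3138 had an unadjusted p under 0.05. This count is fragile. It was 0 when the first, or the second, array of every pool was left out, 1 without the sham array whose labels disagree, and 1306 without the sham pools. A second limma test asked whether the L5 difference departed from the mean of the L4 and sham differences, and called 61 probe sets (0.388%), 21 upward and 40 downward. On chip A, which gave 42 of the 61 calls, the spread in this test came wholly from the intensity trend, and without the trend the count over all chips was 6.

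Macrophage genes were the immune group with the lowest median. Of 19 tested genes of macrophages and microglia-like cells, 8 were at least 1 apart and lower at 50 days and 0 were higher, beside 4.94% of all probe sets lower. Their median difference was -0.95 in L5, 0.09 in L4 and -0.004 in sham, where all L5 probe sets had a median of 0.05. Lyz2, which encodes the lysozyme of phagocytes, read 332 and 568 in L5 at 50 days, against 2798 and 2435 at 28 days. The L5 arrays of the days did not overlap, and the 50 day values lay within the range of 418 to 830 seen in the L4 pools or below it. Lyz2 fell by 2.55 (SE 0.39, limma adjusted p = 0.0319), while its differences were -0.77 in L4 and -0.61 in sham. The lysosomal protease gene Ctss read 136 and 225 at 50 days, against 876 and 809 at 28 days, and fell by 2.18 (SE 0.35, limma adjusted p = 0.0342). Both genes also departed from L4 and sham in the second test (limma adjusted p = 3.44e-05 for Lyz2 and 0.00229 for Ctss).

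The other macrophage genes did not pass the test. Tyrobp, a signalling adaptor of myeloid receptors, read 58.1 and 84.8 at 50 days, against 217 and 271 at 28 days. Aif1, a calcium-binding protein of macrophages, read 45.8 and 42.8, against 145 and 175. Coro1a, an actin regulator of leukocytes, read 51.7 and 50.6, against 142 and 172. In all 3 genes the L5 arrays of the days were clear of each other, with adjusted p of 0.077, 0.156 and 0.0737 by limma. The receptor gene Csf1r, the mannose receptor gene Mrc1 and the lysosomal membrane gene Laptm5 were also at least 1 apart, at -1.19, -1.13 and -1.03, though a second Laptm5 probe set was at 0.15 with overlapping arrays. The leukocyte phosphatase gene Ptprc went the other way, at 0.93 in L5 and 1.04 in sham, and Cd68 was at -0.35 with overlapping arrays. C5ar1 was higher too, at 0.91 in L5 with arrays that did not overlap, and at -0.08 in sham. Of the 19 tested genes, 5 had an L5 difference above 0 and 14 below.

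The promoters of these lower macrophage genes are shown because PU.1 is a transcription factor of the myeloid lineage. RefSeq entries of assembly GRCr8 were found for 6 of the 8 genes, and the 250 bases before each start were searched on both strands for the PU.1 core GAGGAAG and for the AP-1 motif TGANTCA. The PU.1 core was in 4 of the 6, in 2 of 6 among the other tested macrophage genes, in 3 of 18 among the 30 genes of widest separation, and in 10.2% of 33469 promoters. The AP-1 motif was in 0 of 6, 1 of 6, 3 of 18 and 6.34%. Both searches were made with the differences known, and the stretches below were picked because they hold the match, so they are a description with no test. Each is the plus strand, with the reverse complement of the PU.1 core in capitals, at chr2:185775355-185775395 for Ctss, chr18:56834132-56834172 for Csf1r, chr5:148371799-148371839 for Laptm5 and chr17:82157672-82157712 for Mrc1.
Ctss: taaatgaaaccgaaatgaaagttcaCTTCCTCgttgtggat
Csf1r: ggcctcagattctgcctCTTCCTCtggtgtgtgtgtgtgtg
Laptm5: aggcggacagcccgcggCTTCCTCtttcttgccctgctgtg
Mrc1: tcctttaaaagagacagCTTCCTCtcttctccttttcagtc

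Complement genes split. Of 15 tested, 4 were at least 1 apart and lower, all of them parts of the C1 complex, beside 4.94% of all probe sets, and the median of the list was -0.03. C1s, a protease of that complex, read 110 and 133 in L5 at 50 days, against 774 and 723 at 28 days, and fell by 2.51 (SE 0.41, limma adjusted p = 0.0374). C1qb, a chain of the recognition subunit, read 18.1 and 18.7 at 50 days, against 269 and 206 at 28 days (difference -2.99, limma adjusted p = 0.0662). C1qa and C1r were at -1.34 and -1.36, while C1qc, the remaining C1q chain, was at 0.70 with arrays that did not overlap. Gpnmb, a glycoprotein gene of phagocytes, read 11.4 and 33.5 at 50 days, against 309 and 310 at 28 days. Its difference of -3.0 missed the first test (limma adjusted p = 0.0621) and departed from L4 and sham in the second (limma adjusted p = 0.0111). RT1-Da, a class II histocompatibility gene, read 500.2 and 458, against 2094 and 2036, and Cd74, the class II invariant chain, read 807 and 794, against 814 and 713 on its brightest probe set. The other 3 Cd74 probe sets were at -1.09, -1.61 and -2.11, and none was called. Of 20 tested antigen presentation genes, 2 were at least 1 apart and lower and 1 higher, beside 4.94% and 5.44% of all probe sets. Their L5 median was -0.105. Other class II genes split, with RT1-DOa at 1.29 and RT1-DMa at 0.72, and RT1-Db1 at -0.57 and RT1-Bb at -0.42. In each of these the L5 arrays of the days did not overlap.

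Of the axon injury genes, 4 of 31 tested were at least 1 apart and lower and 1 higher, beside 4.94% and 5.44% of all probe sets, with a median of -0.43 in L5, -0.10 in L4 and -0.02 in sham. Jun, a transcription factor of injured neurons and Schwann cells, read 114 and 130 in L5 at 50 days, against 619 and 526 at 28 days. The L5 arrays at 50 days lay below every L4 and sham array of 28 days. Jun fell by 2.11 (SE 0.34, limma adjusted p = 0.0364) and departed from L4 and sham (limma adjusted p = 0.00442). Atf3, its partner in axon injury, read 258 and 374 at 50 days, against 530 and 432 at 28 days, with a difference of -0.60 beside -0.59 in L4 and -0.53 in sham. Gap43, of growing axons, was at -0.69, and Sprr1a, a regeneration gene, at 0.66 on its brighter probe set and -0.65 on the other. None of these 3 passed the test.

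**Figure D2:**
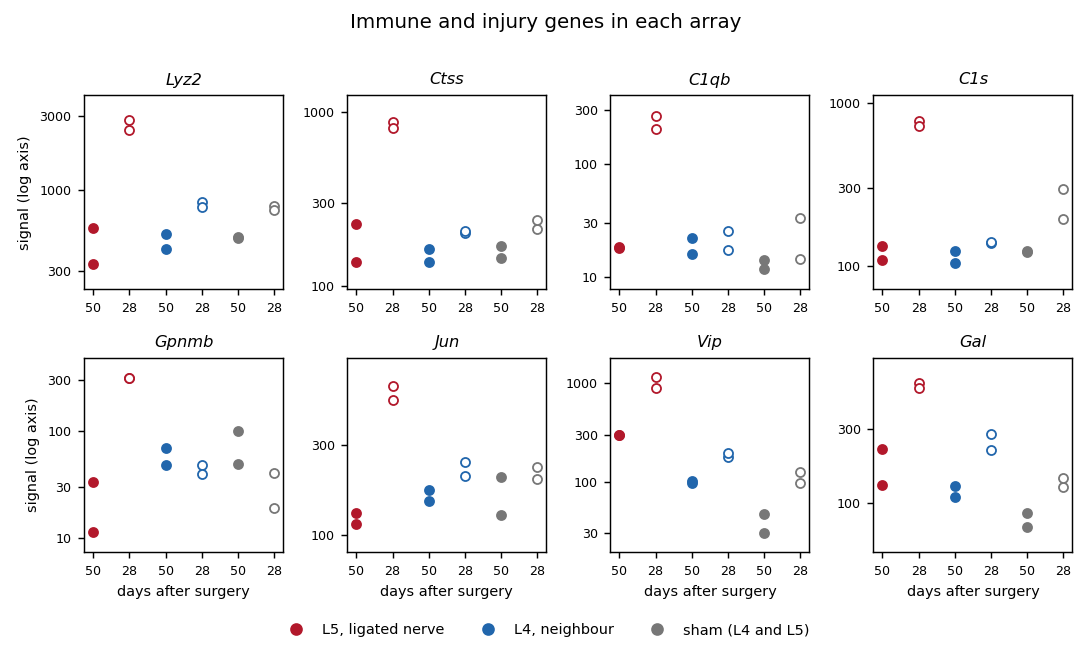
Signal on a log axis of 8 immune and injury genes on the 2 arrays of each pool, by days after surgery (filled, 50 days; open, 28 days) for L5, L4 and sham. In each of the 8 genes both L5 arrays of 50 days lie below both of 28 days, as for Lyz2 at 332 and 568 against 2798 and 2435. The genes were picked from those lower at 50 days, so the shared direction follows from the choice.

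The injury peptides Vip, Npy and Gal were the 3 of 20 tested neuropeptide genes that were at least 1 apart in L5, all lower at 50 days, beside 4.94% of all probe sets lower and 10.4% in either direction. Vip, for vasoactive intestinal peptide, read 300.0 and 302, against 1154 and 903. Npy, for neuropeptide Y, read 357 and 203, against 1088 and 936. Gal, for galanin, read 131 and 223, against 593 and 555. Their differences were -1.70, -1.86 and -1.67 in L5, and they were negative in L4 (-0.80, -1.30 and -0.97) and in sham (-1.18, -1.50 and -0.72) as well. None passed either limma test (adjusted p = 0.157, 0.164 and 0.107 for L5). The rest of the list held the sensory peptide genes Tac1 at 0.67, Sst at 0.94 and Calca at 0.46, which did not pass.

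Markers of large neurons and sodium, potassium and transduction channel genes were mostly higher at 50 days, calcium channel genes were mixed, and of these lists the first limma test called 1 gene, Kcnj11. Of 20 tested markers of large-diameter sensory neurons, 14 had L5 arrays that did not overlap and were higher and 1 lower, beside 31.9% higher and 26.4% lower, 58.4% in either direction, of all probe sets. Their median was 0.67 in L5, 0.02 in L4 and 0.08 in sham. Medians of nociceptor markers were above 0 in L5 as well, at 0.46 over 9 tested peptidergic and 0.33 over 8 tested non-peptidergic genes. These 2 lists were at -0.04 and 0.06 in L4, and at -0.09 and 0.03 in sham. Nefh, the heavy neurofilament chain, read 3448 and 3615 at 50 days, against 2188 and 2303 at 28 days. Pvalb, a calcium-binding protein of proprioceptive neurons that is also in the skeletal muscle list, read 318 and 304, against 139 and 166. It differed by 0.97 in L5 and 0.77 in sham. Etv1 of the same large-neuron list was at -0.53 with arrays that did not overlap. Cntn1 was at -0.31, Ntrk2 at -0.10, Spp1 at -0.02 and Ret at 0.01, all with overlapping arrays. Vsnl1, a neuronal calcium sensor, read 286 and 365, against 169 and 136, where L4 and sham were lower at 50 days, at -0.62 and -0.56. Its L5 difference of 1.00 missed the first test (limma adjusted p = 0.202), and its departure from L4 and sham was 1.59 (limma adjusted p = 0.0405).

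L5 medians were 0.58 over 8 sodium channel, 0.41 over 20 potassium channel, 0.65 over 8 transduction channel and 0.46 over 23 transmitter receptor genes. In L4 they were 0.24, 0.06, -0.02 and 0.01, and in sham 0.03, 0.04, 0.12 and 0.24. The transduction genes tested were Asic, P2rx and Trpv1 genes, with no pacemaker channel. Over 16 general neuronal markers the L5 median was 0.02. Those markers were brighter, with a median log2 value of 9.85 in L5 at 28 days, against 6.32 to 7.39 for these lists. Over all probe sets the median L5 difference was 0.13 in the dimmest bin and -0.04 in the brightest. The part of brightness was not tested. Over 8 calcium channel genes the median was 0.09 in L5 and 0.13 in sham, and the sign of the L5 median turned in 6 of 13 settings. Of these genes 1 was at least 1 apart and higher and 1 lower, beside 5.44% and 4.94% of all probe sets. Kcnj11, a subunit of the ATP-sensitive potassium channel, read 205 and 159 in L5 at 50 days, against 30.6 and 25.1 at 28 days. At 28 days it lay below every L4 and sham array. Kcnj11 rose by 2.25 (SE 0.35, limma adjusted p = 0.0319) and departed from L4 and sham (limma adjusted p = 0.00229). The nociceptor sodium channel genes Scn10a and Scn11a were at 0.70 and 0.63, and the heat and capsaicin receptor gene Trpv1 at 0.84. Scn9a, another nociceptor sodium channel, was at -0.07 on its brighter probe set and 0.57 on the other, and the ATP receptor gene P2rx3 at 0.13. Cacna2d1, the calcium channel subunit that binds gabapentin, went the other way, with 593 and 617 at 50 days, against 1064 and 1463 at 28 days (difference -1.03, limma adjusted p = 0.136). So did Scn3b, the sodium channel gene of widest gap, at -0.99 with arrays that did not overlap (limma adjusted p = 0.105).

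**Figure D3:**
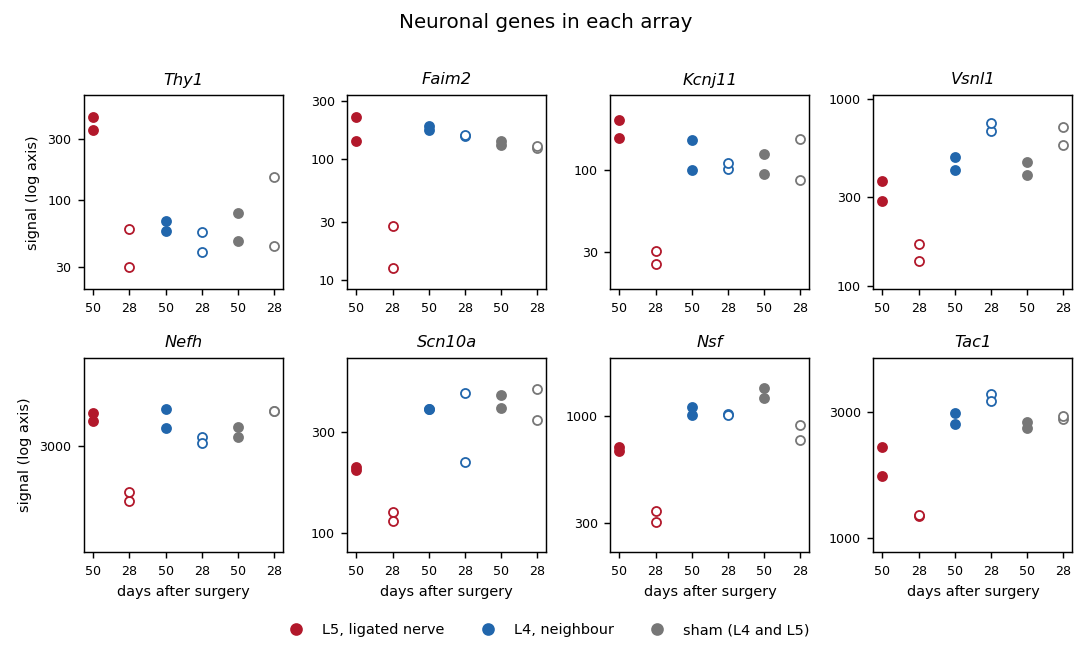
Signal on a log axis of 8 neuronal genes on the 2 arrays of each pool, by days after surgery (filled, 50 days; open, 28 days) for L5, L4 and sham. Both L5 arrays of 50 days lie above both of 28 days in each gene, as for Kcnj11 at 205 and 159 against 30.6 and 25.1. The genes were picked from those higher at 50 days, so the shared direction follows from the choice. Thy1 is shown by its chip B probe set, and its brightest probe set was at 0.12 with overlapping arrays. Nsf is of the synaptic vesicle list, where 2 of 29 tested genes were at least 1 apart and higher and 2 lower, beside 5.44% and 4.94% of all probe sets.

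Of the genes called higher, Faim2, an inhibitor of Fas-mediated cell death in neurons, read 223 and 141 at 50 days, against 27.6 and 12.5 at 28 days, while the 8 L4 and sham arrays read 123 to 187. Faim2 rose by 2.57 (SE 0.33, limma adjusted p = 0.0152). Thy1, a surface glycoprotein of neurons and T cells, read 352 and 443 on its chip B probe set, against 30.0 and 60, and rose by 2.76 (SE 0.36, limma adjusted p = 0.0146). The other 3 tested Thy1 probe sets were at 0.12, 0.63 and 0.75 and were not called, the first of them the brightest, with L5 arrays that overlapped, so the size of the rise rests on 1 dim probe set. Cdh3, a cadherin, read 208 and 205, against 21.2 and 22.3, and rose by 2.50 (SE 0.36, limma adjusted p = 0.0152). Several genes named by the width of their gap were dim at 28 days, as Apoa1 at 11.9 and 11.7 and Mras at 13.4 and 8.9, near the chip A pseudocount of 12.8. The called genes Faim2 and Kcnj11 of chip A, at 27.6 and 12.5 and at 30.6 and 25.1, were dim at 28 days too. So was Cdh3, at 21.2 and 22.3 beside the chip B pseudocount of 17.7. A brighter Mras probe set was at -0.17.

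Connective tissue genes were lower at 50 days, in part in sham too. Of 51 tested genes of the extracellular matrix, 19 were at least 1 apart and lower and 1 higher, and of 13 fibroblast and meningeal genes 8 were lower and 0 higher, beside 4.94% lower and 5.44% higher of all probe sets. The medians were -0.76 and -1.27 in L5, -0.06 and -0.24 in L4, and -0.45 and -0.74 in sham. Col3a1, a fibrillar collagen, read 467 and 684 in L5 at 50 days, against 2794 and 2630 at 28 days, with differences of -2.24 in L5, -1.0 in L4 and -1.46 in sham. Fn1, fibronectin, was at -2.28 in L5 and -1.70 in sham, and the chemokine gene Cxcl14 at -3.26 in L5 and -2.22 in sham. The probe sets of these genes did not all go one way. Others were at 0.90 in L5 for Fn1, at -0.65 and 0.21 for Cxcl14, and at -1.24 and 0.18 for Col3a1. No gene of the matrix list or the fibroblast list was called by either limma test, beside 0.184% and 0.388% of all probe sets in the 2 tests.

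Some blood and muscle genes, which mark other tissue in a dissected ganglion, moved between the days as well. The haemoglobin gene Hbb read 739 and 703 in L5 at 50 days, against 3948 and 3685 at 28 days, and its differences were negative in all 3 kinds of ganglion, at -2.38 in L5, -2.19 in L4 and -1.59 in sham. Of 8 tested genes of red cells and neutrophils, 3 were at least 1 apart and lower in L5 (Hbb, Hbb-b1 and S100a9) and 0 higher, beside 4.94% of all probe sets lower, with medians of -0.70 in L5, -0.67 in L4 and -0.92 in sham. The neutrophil gene S100a9 was at -1.76, -2.66 and -1.68, while S100a8, its partner, was at 0.30 in L5, and the red cell genes Slc4a1 and Hbe1 were both at 0.06. Of 27 tested skeletal muscle genes, 5 were at least 1 apart and lower in L5 and 1 higher, beside 4.94% and 5.44% of all probe sets, with medians of -0.29 in L5, 0.07 in L4 and 0.57 in sham. Acta1, skeletal muscle actin, read 459 and 423 in L5 at 50 days, against 1507 and 1474 at 28 days, while in sham it read 559 and 520 at 50 days, against 222 and 153 at 28 days. Car3, a carbonic anhydrase of muscle and fat, read 167 and 401 in L5, against 1805 and 1783, and this probe set fell by 2.69 (SE 0.25, limma adjusted p = 0.0146). The other tested Car3 probe set, which was dimmer, was at 0.57 with overlapping arrays. Not all muscle genes fell in L5. Ckm was at -0.11, Actn3 at -0.01 and Tpm1 at 0.02, each with overlapping arrays, and Myh4 was at 0.44 with arrays that did not overlap. The part of blood or muscle tissue in the other differences was not tested.

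**Figure D4:**
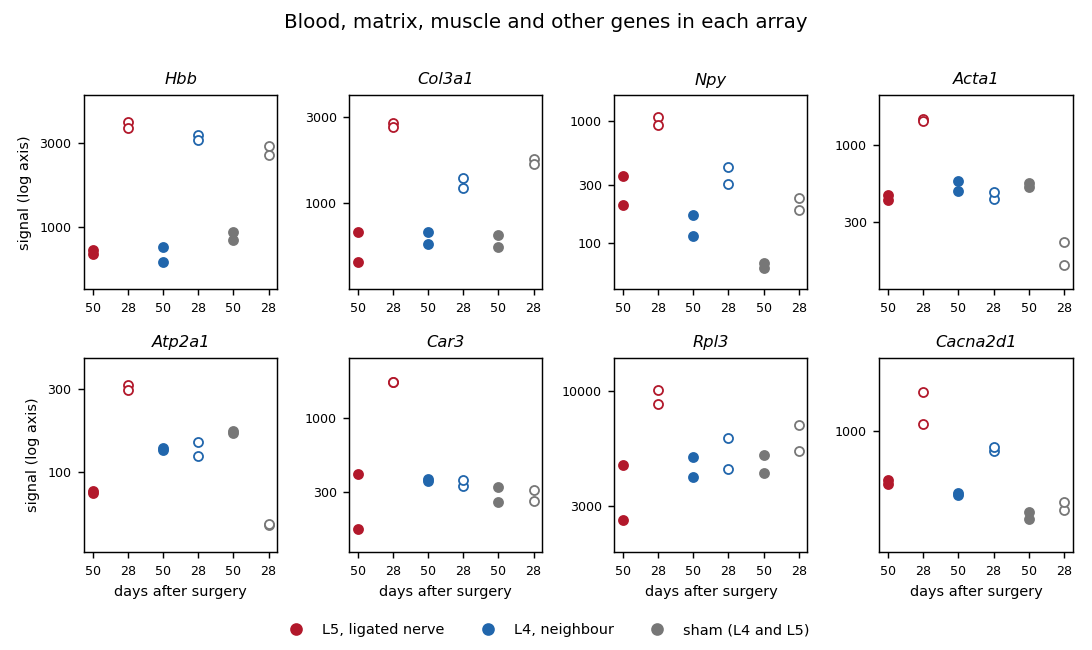
Signal on a log axis of 8 genes of blood, matrix, muscle and other groups on the 2 arrays of each pool, by days after surgery (filled, 50 days; open, 28 days) for L5, L4 and sham. Hbb is lower at 50 days in all 3 kinds of ganglion, while Acta1 is lower at 50 days in L5 and higher at 50 days in sham.

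Ribosomal protein genes were lower at 50 days in L5 in small steps. Of 50 tested, 39 had L5 arrays that did not overlap and were lower, 2 were higher, and 6 were at least 1 apart and lower, beside 26.4% not overlapping and lower, 31.9% not overlapping and higher, and 4.94% at least 1 apart and lower of all probe sets. Their median was -0.61 in L5, -0.27 in L4 and -0.14 in sham. Rpl3, of the large subunit, read 2591 and 4625 at 50 days, against 8721 and 10060 at 28 days (difference -1.43, limma adjusted p = 0.0662). Genes of myelinating Schwann cells had a median of -0.004 over 12 tested, with 0 at least 1 apart, beside 10.4% of all probe sets. Among 12 satellite glial genes the gap junction gene Gja1 was at -1.75, and the fatty acid binding protein gene Fabp7 and the matrix gene Fbln2 were at 1.02 and 1.19. None of these glial genes was called in the first limma test, beside 0.184% of all probe sets.

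**Figure D5:**
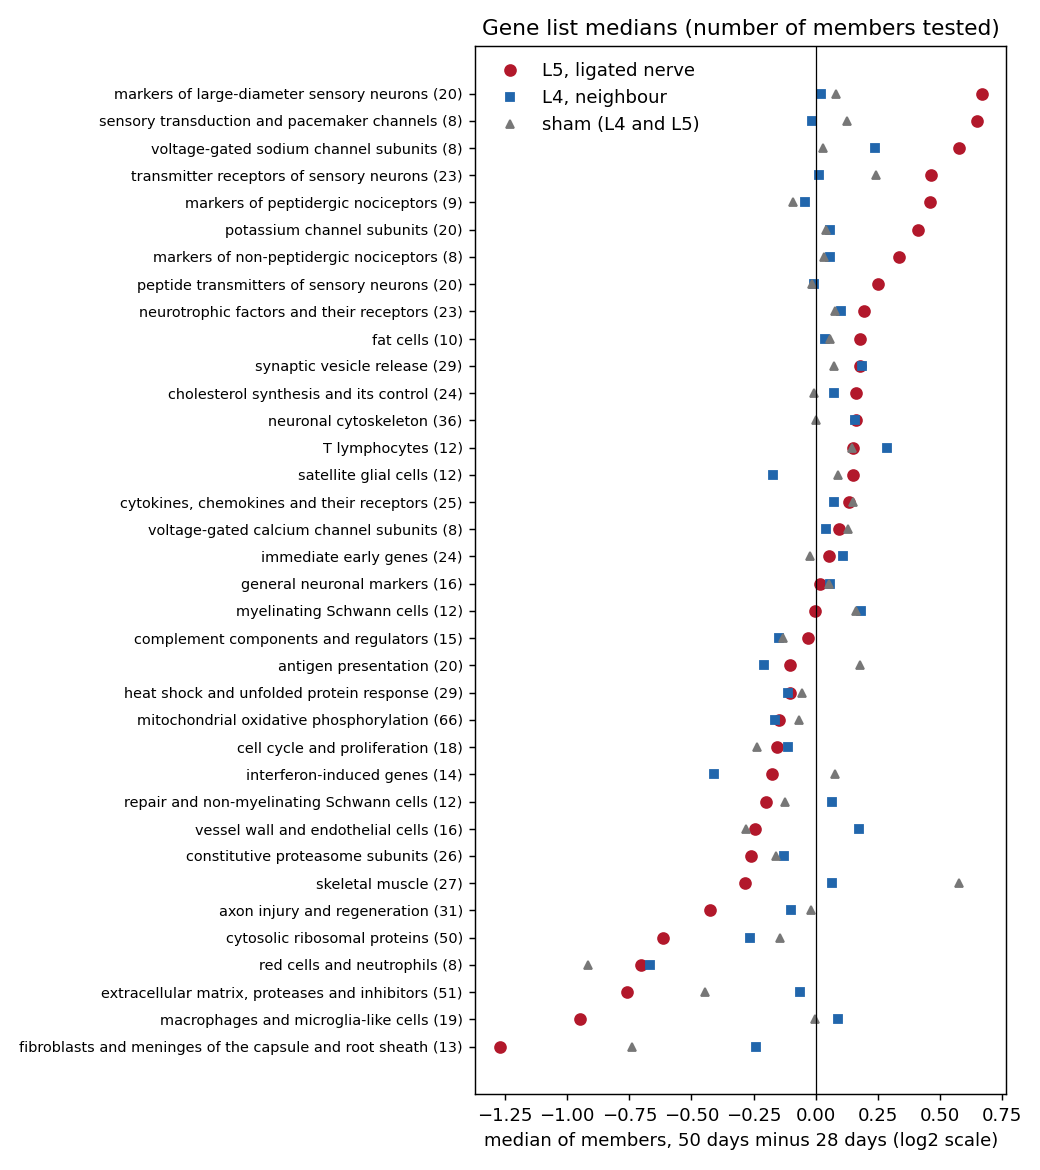
Median difference of 50 minus 28 days on the log2 scale (x axis) of each gene list (y axis, with the number of members tested) in L5, L4 and sham pools. L5 medians run from -1.27 for fibroblast and meningeal genes to 0.67 for markers of large-diameter sensory neurons.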

How the data were processed

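The deposited values are linear intensity, for which the submitters' processing notes name MAS5 with no version. Each array was scaled to 1 trimmed mean per chip type (2% off each end) and put on the scale log2(signal + pseudocount). The pseudocount, at the 20th percentile of signals, was 12.8 on A, 17.7 on B and 20.2 on C, so differences of dim genes are understated. Of 26202 probe sets that are not controls, those with a mean under the 40th percentile were left out, which left 15721. The 2 arrays of a pool were averaged. limma 3.58.1 in R 4.3.3 (lmFit, eBayes with trend) was fitted per chip type, with 2 residual degrees of freedom for the L5 difference and 1 for its departure from L4 and sham. The fits were also run on simulated data. These gave the L5 pools the same spread as the L4 and sham pools, so they could not check that assumption. Genes were named from the platform annotation, 1 probe set with 1 gene symbol each. The genes named were the 15 highest and 15 lowest by the log2 distance between the nearest arrays of the 2 days, up to 5 members of each of 37 lists by the same distance on the brightest tested probe set, and a set of injury and marker genes; only some are described. Csf1r, Laptm5, Mrc1, C1qc, Ptprc, Cd68, S100a8, Slc4a1, Hbe1, Prph, Pmp22, Etv1, Cntn1, Ntrk2, Spp1, Ret, Ckm, Actn3, Tpm1 and Myh4 were named outside that rule, after their values were seen. So were RT1-Db1, RT1-Bb and C5ar1. Members and lists were chosen with earlier results of these data known. The B cell list had 0 tested members. Replicate arrays share RNA, so p-values rest on the spread between 4 pools of L4 and sham.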

Additional observations from a re-analysis of the deposited data

Results flagged for a closer look

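The L5 day difference departed from the mean of the L4 and sham day differences in 61 probe sets by limma at an adjusted p of 0.05. The departures below are on the log2 scale and are flagged because the difference itself passed that test. Downward departures were -3.60 for Gpnmb, -2.74 for Car3, -2.61 for Atp2a1, -2.58 for Acta1, -2.25 for Paf1, -2.16 for Cdc42se2, -1.92 for C1s, -1.86 for Lyz2, -1.73 for Ctss, -1.70 for Jun and -1.44 for RT1-Da. Upward departures were 1.59 for Vsnl1, 1.65 for Akr1d1, 1.85 for Chst5, 2.07 for Tomm40, 2.18 for Kcnj11, 2.43 for Faim2, 2.52 for Mras, 2.63 for Apoa1, 2.73 for Mog and 2.78 for Thy1. For Acta1 and for Atp2a1, a calcium pump of muscle, part of the departure is the sham difference of 1.49 and 1.54, against -1.73 and -1.83 in L5. Car3, Cdc42se2 and Mras each had another tested probe set whose L5 difference had the opposite sign.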

How the results depend on the processing

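The number of probe sets called for the L5 difference, 29 as reported, ranged widely. It was 72 with the pseudocount at the 40th percentile, 0 without a filter, 1 after median centring, 74 after scaling to the hybridisation controls, 4 without the intensity trend, 1056 with the 12 arrays fitted and pool as a random block, 617 without the L4 pools, 1306 without the sham pools, and 1 without the sham array whose labels disagree. Leaving out arrays gave 0 to 661, the higher counts from fits with 1 L5 array of a day, which the fit weighs like 2. Departures from L4 and sham, 61 as reported, were 6 without a filter, 132 after quantile normalization, 6 without the intensity trend, 1152 with pool as a random block, and 1 to 303 when arrays were left out. Probe sets at least 1 apart, 1632 as reported, were 811 with the pseudocount at the 40th percentile, 2634 without a filter, 876 with the filter at the 60th percentile, and 1871 to 2854 when arrays were left out. With a replicate block by array number added to the random block for pool, 851 and 921 were called in the 2 tests. In the scaled values array numbers showed little pairing of the pools: the correlations of array 2 minus array 1 between pools lay between -0.102 and 0.108. Before scaling, the hybridisation controls of chip C were brighter on array 2 than on array 1 in every pool. In L5 they averaged 3434 and 7944 at 28 days, and 4294 and 7521 at 50 days. The replicate block fit and the fit without the sham array whose labels disagree were added after seeing the data. Among single genes the sign turned for Snap25 (0.11 after quantile normalization), P2rx3 (-0.048 after median centring, and -0.039 to 0.302 when arrays were left out), Tubb3 (-0.003 after scaling to the hybridisation controls), Cd74 (-0.10 after that scaling, and -0.024 to 0.163 when arrays were left out) and Scn9a (-0.156 to 0.023 when arrays were left out); the causes were not tested. The L5 medians kept their sign under all 13 settings for the macrophage (-1.08 to -0.81), matrix, fibroblast, ribosomal, large-diameter, sodium, potassium, transduction and receptor lists. The same held for the peptidergic (0.013 to 0.723) and non-peptidergic nociceptor lists. L5 medians turned in 6 settings each for calcium channel and immediate early genes, in 5 for myelinating Schwann cells, and in 4 each for complement and general neuronal markers. In 3 settings they turned for cytokines, in 2 for vessels, and in 1 each for antigen presentation, cell cycle, fat, neurotrophic, repair Schwann cell and satellite glial genes.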
